A study of Mus musculus with 40 samples.

Results

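The 45 genes described here encode proteins of the kinetochore, the spindle assembly checkpoint and the mitotic spindle. They were chosen by name for their textbook function, by a rule that uses no difference between groups. Earlier results of these data were known when they were chosen. Each is measured by the probe set with the highest mean over all arrays among the probe sets that the platform annotation assigns to that gene alone. They are 45 of the 18193 genes measured in this way, and all 45 were tested. By role, 6 are checkpoint proteins, 6 are Aurora kinases and chromosomal passenger proteins, 15 are centromere proteins and 9 belong to the microtubule-binding network. Another 3 form the complex of ROD, ZW10 and Zwilch, 2 are shugoshins and 4 are spindle motors or spindle assembly factors.

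The kinetochore is the protein assembly on the centromere that holds a chromosome to spindle microtubules. Its inner layer rests on CENP-A, the histone H3 variant of centromeres, and its outer layer, built from the KNL1, MIS12 and NDC80 complexes, binds the microtubules. A kinetochore without microtubules recruits MAD and BUB proteins, which delay anaphase by holding back the anaphase-promoting complex, while Aurora kinases release faulty attachments. An egg stores maternal messenger RNA for many of these proteins, since the first divisions of the embryo begin with little transcription of its own. In the mouse, large-scale transcription from the embryonic genome starts at the 2-cell stage, when much maternal RNA is degraded. Abnormal spindles are a known defect of cloned embryos.

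The study measured poly(A) RNA of whole B6D2 mouse embryos on Affymetrix arrays. Fertilized embryos were studied beside clones and parthenogenetic embryos, the latter activated without sperm. Clones came from somatic cell nuclear transfer (SCNT) with a cumulus cell, the somatic companion of the egg, as donor. All 3 origins were sampled untreated at the 1-cell and the 2-cell stage. Fertilized and SCNT embryos were also sampled at both stages with α-amanitin, which blocks RNA polymerase II and with it new messenger RNA. This makes 10 groups of 4 arrays, except that untreated SCNT 1-cell embryos have 3 because the values of replicate 2 are empty, so 39 arrays were used. SCNT embryos are labelled as kept in MEMα and 1 fertilized sample as kept in KSOM, and no medium is named for the others, so medium and origin cannot be told apart. Nothing in the labels ties replicates to separate cultures or animals, and p-values measure only the spread between these samples. Because poly(A) RNA was labelled, a change in tail length and a change in amount cannot be told apart. Less RNA in every embryo and fewer embryos that hold the RNA cannot be told apart either.

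Levels are log2 of the deposited intensity plus a constant of 6.9, quantile normalized over the arrays, so a difference of 1 is a 2-fold change. This gives every array the same distribution. A difference is therefore relative to the other RNA on the array and is not an amount per embryo. A gene is called when its adjusted p from limma, over all 18193 genes, is under 0.05. Levels of different genes come from different probes and are not compared. Arrays of a group correlated with each other at 0.945 to 0.979 across genes. The 4 arrays of SCNT 2-cell embryos with α-amanitin had the lowest mean correlations of all and the highest hybridization controls, 10.88 ± 0.19 (SD, n = 4) against group means of 9.55 to 10.05 elsewhere. Spiked poly(A) controls had means of 3.98 and 3.87 in SCNT 1-cell embryos without and with α-amanitin. They were highest, 10.13, in SCNT 2-cell embryos with α-amanitin, against 6.66 to 8.68 in the remaining groups. The part of these controls in the results was not tested. Of 10 oocyte markers, 9 or 10 lay above the overall median of 5.34 in every group, and 8 of 8 markers of the 2-cell stage did so in the untreated 2-cell embryos. Of those 8 markers, 4 to 6 also lay above it in the 1-cell groups. With α-amanitin 6 did so in fertilized and 5 in SCNT 2-cell embryos. Cenpb, a centromere satellite binding protein, lay under that median in all 10 groups. Cenpl and Cenpt exceeded it in 8 groups, Mad1l1 in 7, Spc24 and Sgo2a in 9, and each of the other members in all 10.

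Many mitotic genes share a promoter element, the cell cycle homology region, with the letters TTTGAA or TTCGAA. Promoter windows of RefSeq on GRCm38.p6, from 250 bases before to 50 bases after the annotated start, exist for 39 of the 45 members. Of these genes, 19 (48.7%) hold the element on either strand, against 21.7% of 27025 genes with such windows. The 250 bases before the start are shown for 4 genes that differ in their course between the stages, with each match in capitals. Cenpl (chr1:161070517-161070766, plus strand) and Cenpm (chr15:82244337-82244586, minus strand) rose in fertilized embryos. Kif11 (chr19:37376132-37376381, plus strand) fell on the probe set used, but not for the mean of its probe sets (0.017, adjusted p = 0.934). Cenpt (chr8:105852009-105852258, minus strand) had the largest rise of all members and holds no match in this window.
Cenpl: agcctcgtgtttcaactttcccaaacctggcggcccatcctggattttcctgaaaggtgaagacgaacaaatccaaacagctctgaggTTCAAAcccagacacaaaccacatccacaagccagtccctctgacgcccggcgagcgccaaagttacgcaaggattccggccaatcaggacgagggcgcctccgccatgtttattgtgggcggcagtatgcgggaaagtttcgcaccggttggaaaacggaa
Cenpm: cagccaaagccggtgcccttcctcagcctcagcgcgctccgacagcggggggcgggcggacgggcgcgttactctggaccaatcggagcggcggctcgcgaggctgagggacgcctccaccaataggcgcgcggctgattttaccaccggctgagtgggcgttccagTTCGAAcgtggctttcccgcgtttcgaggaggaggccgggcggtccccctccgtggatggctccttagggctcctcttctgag
Kif11: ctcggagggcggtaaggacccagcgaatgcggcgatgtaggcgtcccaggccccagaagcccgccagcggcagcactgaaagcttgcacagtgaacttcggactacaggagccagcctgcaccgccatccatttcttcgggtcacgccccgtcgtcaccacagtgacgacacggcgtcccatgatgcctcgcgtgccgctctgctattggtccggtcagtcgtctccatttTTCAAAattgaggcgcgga
Cenpt: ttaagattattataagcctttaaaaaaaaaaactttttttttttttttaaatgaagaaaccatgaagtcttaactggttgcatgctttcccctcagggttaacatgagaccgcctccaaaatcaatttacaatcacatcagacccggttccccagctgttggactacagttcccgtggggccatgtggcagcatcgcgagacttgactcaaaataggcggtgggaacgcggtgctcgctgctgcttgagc
The match begins 162 bases before the start in Cenpl, 83 before it in Cenpm and 19 before it in Kif11. Among the members that rose between the stages in fertilized embryos, 7 of 11 with a window hold the element, and among those that fell 10 of 21 do. Among the members not called there, 2 of 7 hold it. A match is a description of the sequence and not evidence of binding.

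**Figure D1:**
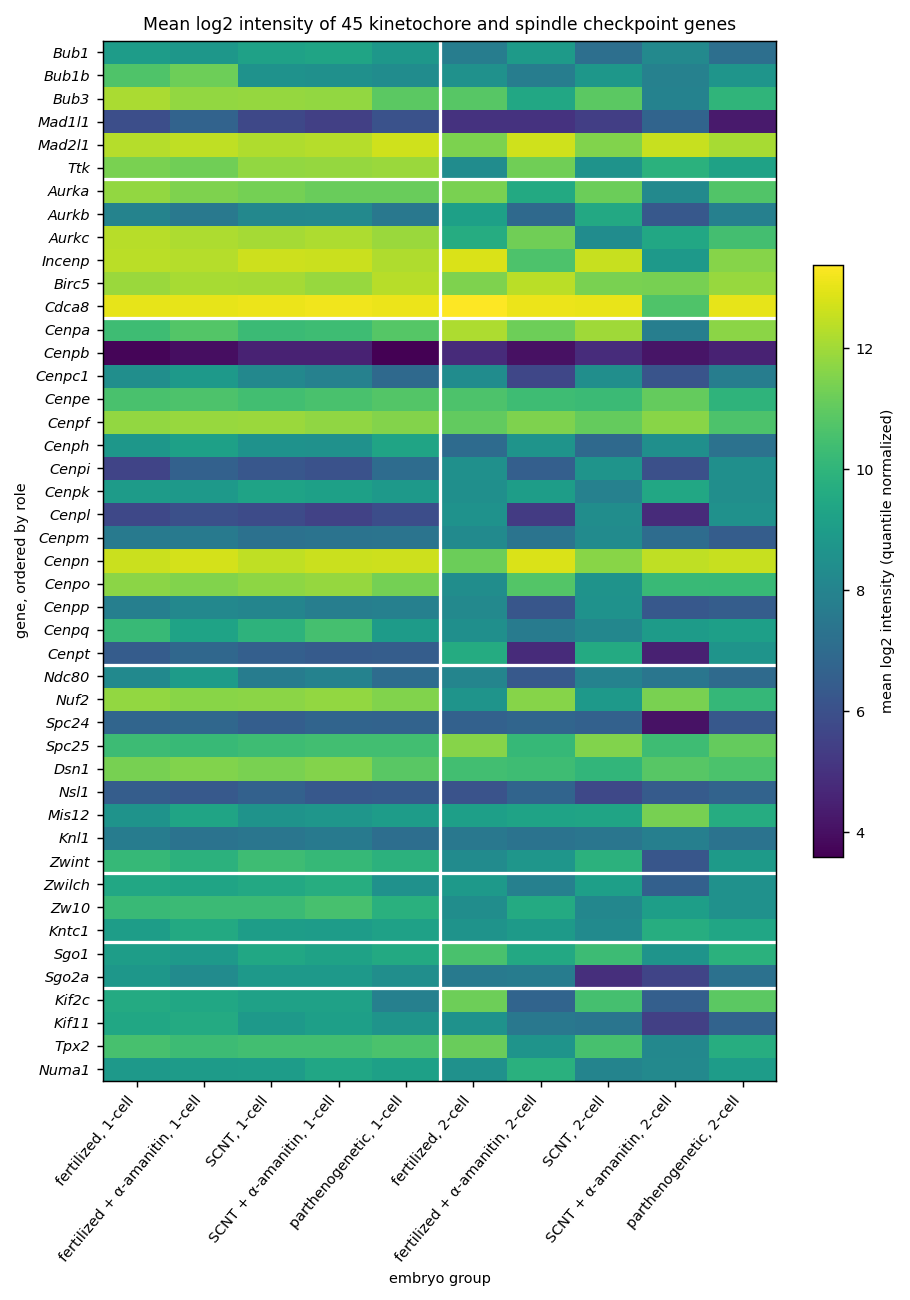
Mean log2 intensity of each of the 45 genes (rows, ordered by role, white lines between roles) in each of the 10 embryo groups (columns, 1-cell on the left of the white line, 2-cell on the right). Lighter colour is a higher level. Cenpt, Cenpl and Cenpi are brightest in the 3 untreated 2-cell groups, and Nuf2, Cenpo, Ttk and Aurkc are dimmer there than in the 1-cell groups.

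From the 1-cell to the 2-cell stage, checkpoint transcripts fell in fertilized embryos, while as many centromere protein transcripts rose as fell. Of the 45 genes, 14 rose and 22 fell, while 21.6% of all genes rose and 28.6% fell. The median difference was -0.37 over the members and -0.11 over all genes. Whether genes of similar signal are called as often as the members was not tested. The signal of 18S ribosomal RNA went from 13.17 ± 0.21 (SD, n = 4) to 10.25 ± 0.59 at this step and was 12.79 ± 0.14 in 2-cell embryos with α-amanitin, and its part in the results was not tested. Of the 6 checkpoint genes, 5 fell, 0 rose and Mad1l1 was not called (-0.93, SE 0.42).

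Ttk encodes the kinase MPS1, which starts checkpoint signalling at unattached kinetochores. Its levels on the 4 fertilized 1-cell arrays were 11.81, 11.39, 11.30 and 11.11, and on the 2-cell arrays 8.32, 8.34, 8.59 and 8.11. All 2-cell arrays lay below all 1-cell arrays, a difference of -3.06 (SE 0.14, adjusted p = 3.28e-21), or 8.36-fold, and of -1.37 for the mean of its probe sets. Bub1b encodes BUBR1, a subunit of the mitotic checkpoint complex that inhibits the anaphase-promoting complex. It read 10.15, 10.79, 10.92 and 10.84 at the 1-cell stage against 8.44, 8.48, 8.66 and 8.64 at the 2-cell stage, again without overlap (-2.12, SE 0.17). Bub3, the partner of BUB1 and BUBR1, fell by 1.31 (SE 0.16), Bub1, the kinase that marks centromeric chromatin, by 1.27 (SE 0.14), and Mad2l1, the MAD2 protein of the inhibitory complex, by 0.81 (SE 0.09).

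The 6 Aurora and passenger genes were split evenly, with 3 higher and 3 lower. Aurkc encodes the Aurora kinase of germ cells, which works in meiosis. It fell from 12.24, 12.36, 12.40 and 12.27 to 9.69, 9.61, 9.57 and 9.76 (-2.66, SE 0.09, adjusted p = 2.07e-25). Aurkb encodes Aurora B, the kinase of the chromosomal passenger complex, and rose from 7.64, 8.26, 7.95 and 8.08 to 9.02, 9.35, 9.05 and 9.27 (1.19, SE 0.15). The arrays of the stages were apart for both kinases, in opposite directions. Aurka, the kinase of spindle poles, fell by 0.35 (SE 0.12) and Birc5, survivin, by 0.40 (SE 0.12). Incenp, the scaffold of the passenger complex, rose by 0.45 (SE 0.12). Cdca8, borealin, rose by 0.35 (SE 0.07), but the sign turned with the values as deposited (-0.10) and with median centring (-0.24).

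Of the 15 centromere proteins, 6 rose and 6 fell. Cenpt encodes the inner kinetochore protein that bridges centromeric DNA to the NDC80 complex. Its 1-cell levels were 6.66, 6.53, 6.22 and 6.42 and its 2-cell levels 9.85, 9.82, 9.44 and 9.32, a rise of 3.15 (SE 0.24) or 8.88-fold. Cenpl, the partner of CENP-N in the inner kinetochore, went from 6.04, 5.36, 5.78 and 5.75 to 8.46, 8.90, 8.45 and 8.53 (2.86, SE 0.28). Neither gene had overlapping arrays. Cenpa rose by 1.84 (SE 0.11) and Cenpi, of the same inner assembly, by 2.90 (SE 0.34), where 1 of the 4 fertilized 1-cell arrays read 4.25 and the others 5.93 to 6.19. In the other direction, Cenpo, a subunit that helps recruit Polo-like kinase, fell from 11.21, 11.74, 11.83 and 11.87 to 8.42, 7.91, 8.58 and 8.58 (-3.29, SE 0.12; -1.02 for the mean of its probe sets). Cenph fell by 1.77, so members of the same inner assembly moved both ways.

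In the microtubule-binding network 2 of 9 genes rose and 3 fell, and the NDC80 complex was itself divided. Nuf2, which pairs with NDC80 in the microtubule-binding arm, fell from 11.73, 11.85, 11.80 and 11.86 to 8.44, 8.63, 8.79 and 8.82 (-3.14, SE 0.11), or 8.81-fold. Its partner Ndc80 was not called (-0.20, SE 0.17, adjusted p = 0.339), and Spc25, from the base of the same complex, rose by 1.28. Zwint, which links the network to the ROD complex, fell by 1.81 (0.58 for the mean of its probe sets). All 3 genes of the ROD, ZW10 and Zwilch complex fell, Zw10 by 1.84, but for the mean of its probe sets that call was lost (-0.38, adjusted p = 0.0505). The shugoshins protect cohesin at centromeres. Sgo2a fell by 1.20 (SE 0.27), and Sgo1 rose by 1.55 on the probe set used but had -0.28 for the mean of its probe sets (adjusted p = 0.00716), so its direction depends on the probe set. Kif2c encodes MCAK, a motor that takes microtubules apart at centromeres, and rose by 1.65 (SE 0.17; 0.67 for the mean of its probe sets). Tpx2, which activates Aurora A on the spindle, rose by 0.60 (SE 0.11), and Kif11, the motor that pushes the spindle poles apart, fell by 0.81 (SE 0.18). Both directions turned for the mean of their probe sets, to -0.19 (adjusted p = 0.142) and 0.017 (adjusted p = 0.934). Numa1, the pole-focusing protein, was not called (-0.33, SE 0.15). The calls of Birc5, Mis12 and Kntc1 in this comparison were lost without fertilized 1-cell replicate 1.

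**Figure D2:**
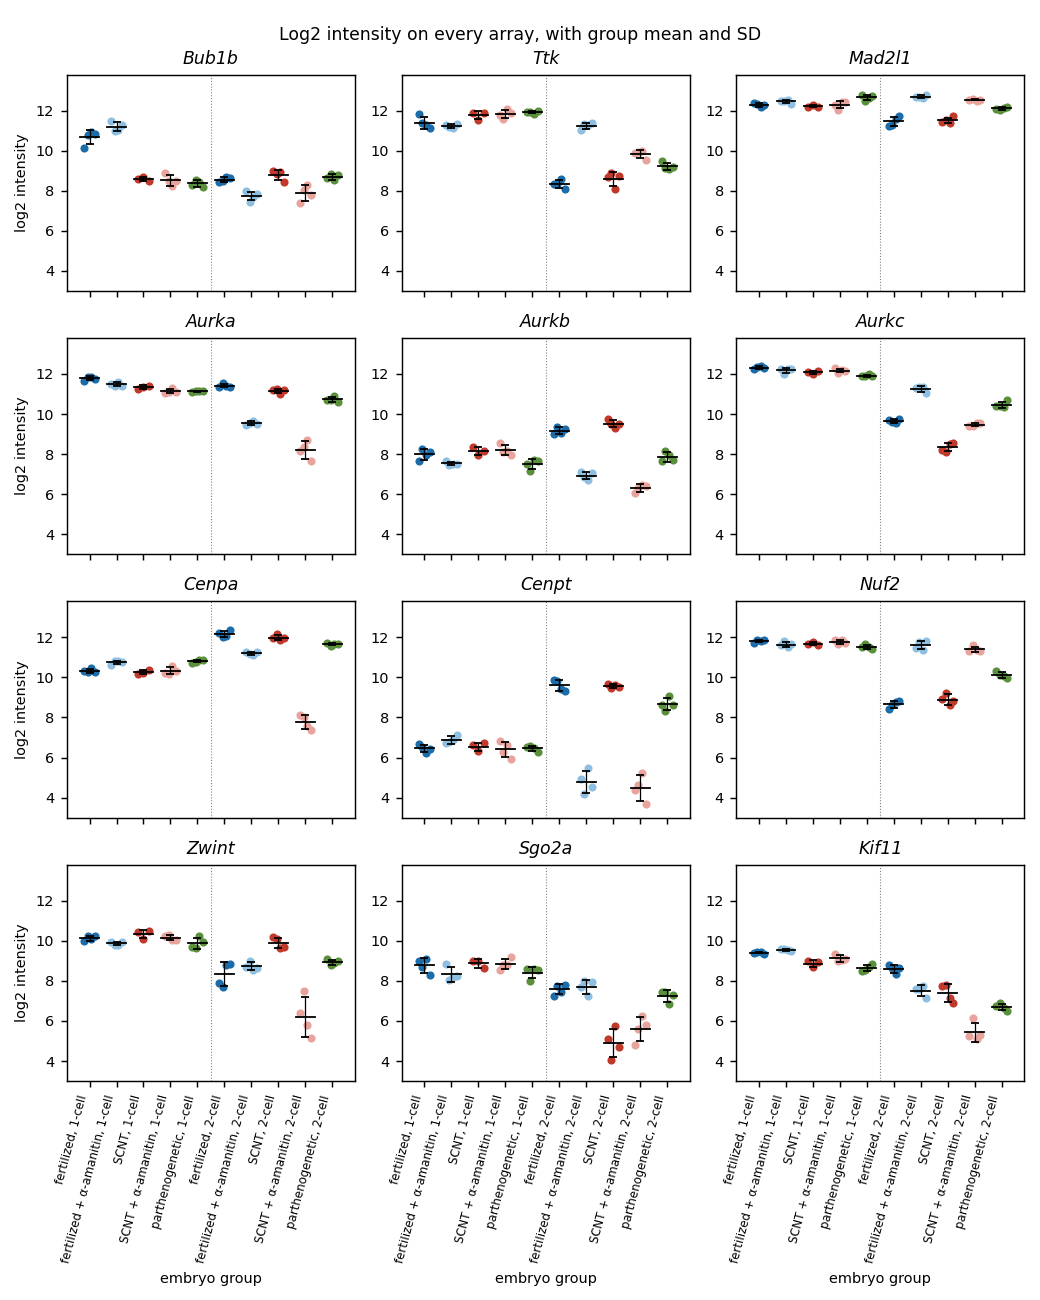
Log2 intensity on every array for 12 of the genes, by embryo group. Each point is 1 array, the horizontal bar is the group mean, the error bar 1 SD (n = 4, or 3 for untreated SCNT 1-cell embryos), and the dotted line parts 1-cell from 2-cell groups. Bub1b lies above 10 in the fertilized 1-cell groups, with and without α-amanitin, and below 9 in the others, and Cenpt is low in the 2-cell groups with α-amanitin.

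In SCNT embryos most called members moved as they did in fertilized ones. Between the stages 10 members rose and 20 fell, against 22.1% and 28.6% of all genes, with medians of -0.33 over the members and -0.11 over all genes. Every gene of the 10 that rose also rose in fertilized embryos, and 18 of the 20 that fell did so there. Of all genes that rose or fell in SCNT embryos, 75.1% and 79.2% moved the same way in fertilized embryos. Cenpt rose by 3.03 (SE 0.26), Cenpl by 2.56 (SE 0.30), Cenpa by 1.73 (SE 0.12) and Aurkb by 1.35 (SE 0.16). Ttk fell by 3.17 (SE 0.15), Cenpo by 3.11 (SE 0.13), Nuf2 by 2.78 (SE 0.12) and Bub1 by 2.01 (SE 0.15). As means of probe sets the values were 0.68 for Cenpa, -1.46 for Ttk and -0.89 for Cenpo.

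The change between the stages itself differed from that of fertilized embryos for 12 members, 3 upward and 9 downward, while 6.98% and 8.28% of all genes differed upward and downward. Sgo2a fell by 3.98 in SCNT and by 1.20 in fertilized embryos (difference -2.78, SE 0.39, adjusted p = 1.8e-06). Aurkc fell by 3.74 against 2.66 (difference -1.08, SE 0.13). Bub1b was the reverse case. It fell in fertilized embryos and was not called in SCNT embryos (0.20, SE 0.18), a difference of 2.32 (SE 0.24, adjusted p = 5.6e-09), or 1.52 for the mean of its probe sets. With median centring the split of this count was 2 upward and 12 downward, and the calls of Incenp, Tpx2 and Dsn1 in it were lost without single arrays.

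In parthenogenetic embryos 10 members rose and 23 fell between the stages, against 17.8% and 22.6% of all genes, and with median centring 6 rose and 27 fell. Of the 14 genes that rose in fertilized embryos 9 also rose here, against 57.8% of all genes that rose there, and Cenpm, Incenp and Tpx2 fell (0.16, not called, for Incenp and -0.29 for Tpx2 with the mean of their probe sets). Kif2c, at 7.73, 7.95, 7.89 and 7.81 on the 1-cell arrays, reached 10.98, 11.05, 10.90 and 10.80 on the 2-cell arrays (3.09, or 1.40 for the mean of its probe sets), the largest rise of a member here. Ttk fell by 2.69, Cenph by 2.03 and Kif11 by 1.94, with -1.55 for Ttk and -1.19 for Kif11 as means of their probe sets. Cenpo fell by 1.14 (SE 0.12) and Nuf2 by 1.41 (SE 0.11), which was less than in fertilized embryos by 2.15 (SE 0.17) and 1.73 (SE 0.15). For Cenpo the mean of its probe sets gave -0.47 and a difference of 0.55, and median centring gave -1.74. In all, the stage change differed from the fertilized one for 24 members, 11 upward and 13 downward, against 15.8% and 12.7% of all genes (8 upward and 15 downward with median centring). Directions of Spc25 and Sgo1, called as higher here, turned with median centring, to -0.0014 and -0.26.

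**Figure D3:**
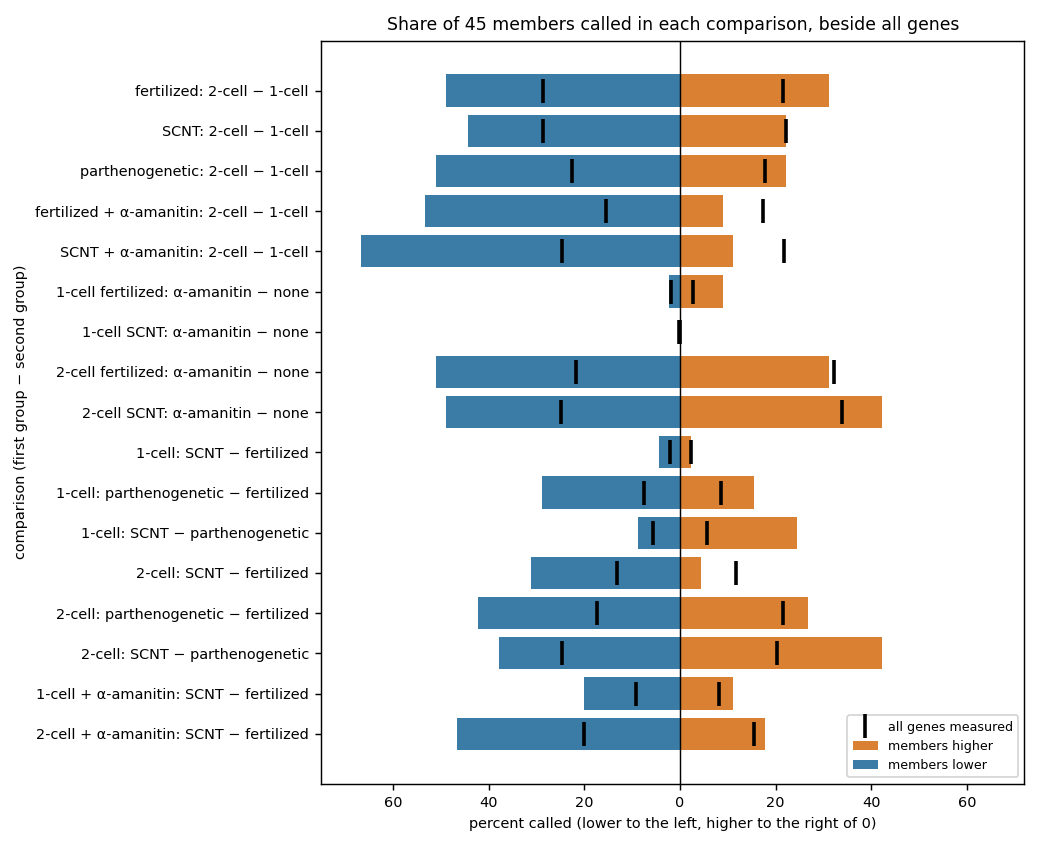
Percent of the 45 genes called higher (orange, to the right of 0) or lower (blue, to the left) in each of 17 comparisons, with black marks for the percent of all genes measured. With α-amanitin the 2-cell minus 1-cell comparison had 30 lower members in SCNT and 24 in fertilized embryos, and no member was called for α-amanitin in 1-cell SCNT embryos.

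With α-amanitin, few members rose between the stages. In fertilized embryos 4 rose and 24 fell, against 17.4% and 15.5% of all genes, with medians of -0.61 over the members and 0.09 over all genes. Median centring gave 0 higher and 30 lower. Bub1b fell by 3.47 (SE 0.17), Cenpc1, the CENP-C scaffold that ties CENP-A to the outer kinetochore, by 3.22 (SE 0.21), Kif2c by 2.69 (SE 0.17) and Ndc80 by 2.62 (SE 0.17). Cenpt, which rose without the inhibitor, fell by 2.10 (SE 0.24). The mean of probe sets gave -2.31 for Bub1b and -1.26 for Kif2c, and median centring -3.31 for Kif2c. In SCNT embryos 5 rose and 30 fell, against 21.7% and 24.7% of all genes. All 6 Aurora and passenger genes and all 4 spindle genes were among those that fell, among them Incenp (-3.75, SE 0.12) and Kif11 (-3.67, SE 0.18). For the mean of their probe sets these were -1.44 and -1.76, and for Incenp -4.42 with median centring. Mis12, from the complex that joins inner and outer kinetochore, was the member that rose most, from 8.65, 8.57, 8.99 and 8.69 to 11.64, 11.36, 11.12 and 11.36 (2.65, SE 0.16).

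Comparing 2-cell embryos with and without α-amanitin shows which transcripts were lower when transcription was blocked. In fertilized 2-cell embryos 23 members were lower with the inhibitor and 14 higher, against 21.7% and 32.2% of all genes. The median was -0.30 over the members and 0.21 over all genes, so the members lay lower than the array as a whole. Of the 15 centromere proteins 10 were lower and 5 higher, and of the 6 checkpoint genes 2 were lower and 3 higher. Cenpt read 9.85, 9.82, 9.44 and 9.32 without and 4.91, 4.20, 5.49 and 4.54 with α-amanitin. The difference was -4.82 (SE 0.24), and -4.20 with a constant at the 40th percentile, since 3 of the 4 treated arrays lay under the overall median and differences of dim signal depend on the constant. Kif2c read 11.14, 11.23, 11.07 and 11.41 against 6.61, 7.20, 6.30 and 6.87 (-4.47, or -2.14 for the mean of its probe sets).

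Other members that were lower with the inhibitor in fertilized 2-cell embryos were Cenpl (-3.29), Cenpc1 (-2.68), Tpx2 (-2.47), Aurkb (-2.25) and Incenp (-2.14). For the mean of its probe sets Tpx2 lost its call (-0.14, adjusted p = 0.272), and Incenp stood at -1.32. Aurka was lower by 1.89 (SE 0.12; 0.82 for the mean of its probe sets) after a fall of 0.35 between the untreated stages. Its treated arrays read 9.44, 9.56, 9.65 and 9.48 and its untreated ones 11.37, 11.54, 11.42 and 11.36. Among the higher members, Nuf2 reached 11.47, 11.78, 11.39 and 11.83 with α-amanitin against 8.44, 8.63, 8.79 and 8.82 without, with no overlap. Ttk (2.91), Cenpo (2.37), Cenph (1.66), Cenpn (1.63) and Aurkc (1.59) were higher as well, with 1.29 for Ttk and 0.78 for Cenpo as means of their probe sets. Mad2l1 was higher by 1.22 and Numa1 by 1.26 (SE 0.15). Cdca8, called lower by 0.30 (SE 0.07), was higher by 0.20 with the values as deposited and with median centring.

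In SCNT 2-cell embryos 22 members were lower with α-amanitin and 19 higher, against 25% and 33.9% of all genes, with medians of -0.53 and 0.24. Cenpa read 11.98, 12.15, 11.85 and 11.95 without and 8.12, 8.04, 7.59 and 7.36 with the inhibitor. The difference was -4.20 (SE 0.11, adjusted p = 1.51e-28), or 18.4-fold, and -2.16 for the mean of its probe sets. Cenpt was lower by 5.10, Kif2c by 3.92, Incenp by 3.73, Zwint by 3.68 and Cenpl by 3.57. The mean of their probe sets gave -2.01 for Kif2c, -1.86 for Incenp and -1.52 for Zwint, and a constant at the 40th percentile -4.35 for Cenpt and -2.94 for Cenpl. Aurkb was lower by 3.22 and Aurka by 2.96 (3.84 and 1.50 for the mean of their probe sets), and the treated Aurka arrays read 8.14, 8.36, 8.68 and 7.65. Higher were Nuf2 (2.52), Mis12 (2.06), Cenpo (1.61), Cenph (1.50, SE 0.14) and Ttk (1.24, SE 0.14). For the mean of its probe sets Ttk lost its call (0.32, adjusted p = 0.176), and Cenpo stood at 0.46.

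Directions can be compared between experiments that share no array. Of the 14 members that rose between the stages in fertilized embryos, 12 were lower with α-amanitin in SCNT 2-cell embryos, Mis12 was higher and Cenpb was not called. Among all genes that rose there, 69.4% were lower. Of the 22 that fell, 15 were higher with α-amanitin in SCNT embryos, against 64.9% of all genes that fell. Aurka, Bub1b, Bub3, Kif11, Zwilch and Zwint fell between the stages in fertilized embryos and were lower with the inhibitor in SCNT embryos. Of these, Aurka, Bub1b, Zwilch and Zwint were not called between the stages in SCNT embryos. In the reverse pairing, 9 of the 10 members that rose in SCNT embryos were lower with α-amanitin in fertilized embryos, against 70.9% of all genes. Of the 20 members that fell in SCNT embryos, 14 were higher with it, against 77.8% of all genes that fell. Whether the members depart from all genes in these shares was not tested.

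The effect of α-amanitin at the 2-cell stage differed between the origins for 25 members, 7 upward and 18 downward in SCNT minus fertilized embryos, against 14.5% and 17.1% of all genes. All 6 Aurora and passenger genes were among the 18, but for the mean of its probe sets Incenp lost its call (-0.54, adjusted p = 0.12). Zwint stood out in size. It read 8.69, 9.00, 8.54 and 8.67 in treated fertilized embryos and 6.41, 7.50, 5.81 and 5.14 in treated SCNT embryos, and the difference between the effects was -4.08 (SE 0.37, adjusted p = 2.2e-11), or -1.68 for the mean of its probe sets. For Cenpa it was -3.24 (SE 0.15), or -1.34 for the mean of its probe sets. Its treated fertilized arrays read 11.29, 11.17, 11.13 and 11.25. The effect of the inhibitor on Cenpa was -0.96 in fertilized and -4.20 in SCNT embryos. Spc24, the base subunit of the NDC80 complex, differed by -2.71 (SE 0.40; -1.95 with a constant at the 40th percentile).

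Cdca8 gave the tightest values of these. Its untreated SCNT 2-cell arrays read 13.01, 13.08, 13.14 and 13.04, its treated fertilized arrays 13.11, 13.11, 13.09 and 13.02, and its treated SCNT arrays 10.53, 11.02, 10.53 and 10.68. The difference between the effects was -2.08 (SE 0.10), and 3 probe sets of the gene gave -2.08 to -2.65. In the other direction stood Mis12 (1.90, SE 0.22), Cenpq (1.67, SE 0.25), Ndc80 (1.19, SE 0.23) and Cenpe, the motor that moves chromosomes to the spindle equator (1.14, SE 0.14). Ndc80 was 6.15, 6.27, 6.55 and 6.32 in treated fertilized embryos and 7.45, 7.40, 7.29 and 7.54 in treated SCNT embryos. These results rest on the SCNT 2-cell arrays with α-amanitin. That group had the lowest correlations among replicates and the highest hybridization and spiked poly(A) controls. The part of array quality and of RNA amount in these results was not tested.

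**Figure D4:**
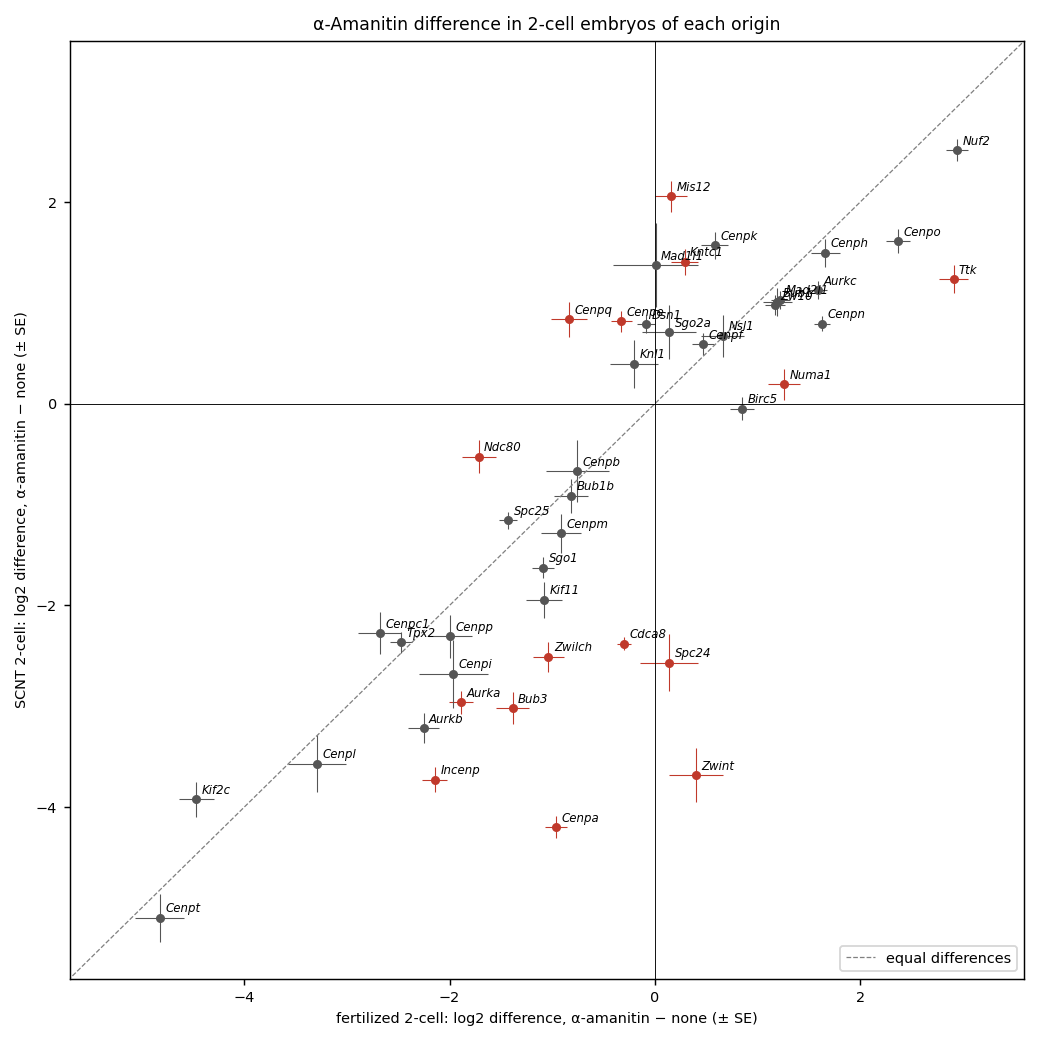
Log2 difference between α-amanitin and no inhibitor at the 2-cell stage for each gene, in fertilized embryos (horizontal axis) and SCNT embryos (vertical axis), with SE bars. The dashed line marks equal differences, and red points are genes whose interaction was called with a size of at least 1. Zwint, Cenpa, Spc24 and Cdca8 lie far below the line and Mis12 above it.

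At the 1-cell stage few members were called for the inhibitor. In fertilized 1-cell embryos 4 members were higher with α-amanitin and 1 lower, against 2.73% and 1.83% of all genes. Ndc80 read 9.16, 9.00, 8.99 and 8.64 with and 8.59, 8.22, 8.21 and 7.95 without it (0.70, SE 0.17), and Cenpq was lower by 0.90 (SE 0.17). Mis12 (0.67), Kntc1 (0.50) and Cenpa (0.43) were the other calls. The count depended on scaling, with 6 higher and 3 lower for the values as deposited and 15 and 0 with median centring. It was 2 without fertilized 1-cell amanitin replicate 3, 3 without fertilized 1-cell replicate 2 or fertilized 1-cell amanitin replicate 2, and 8 without fertilized 1-cell replicate 1. In SCNT 1-cell embryos limma called 0 of 45 members, against 0.0715% of all genes higher and 0.28% lower. Of the members 3 had an unadjusted p under 0.05, as did 7.94% of all genes, and the smallest adjusted p of a member was 0.274.

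Untreated 1-cell embryos of the 3 origins differed most clearly in Bub1b. Against the 10.15, 10.79, 10.92 and 10.84 of fertilized embryos, the SCNT arrays read 8.59, 8.70 and 8.46 and the parthenogenetic arrays 8.31, 8.56, 8.41 and 8.17. No SCNT or parthenogenetic array reached a fertilized one. The difference was -2.09 (SE 0.18, adjusted p = 5.71e-10) in SCNT embryos, or 4.25-fold, and -2.31 (SE 0.17) in parthenogenetic embryos, or 4.97-fold, both against the same fertilized arrays. With α-amanitin, in arrays not shared with these, fertilized 1-cell embryos read 11.49, 11.00, 11.04 and 11.29 and SCNT embryos 8.89, 8.47, 8.25 and 8.47 (-2.68, SE 0.17), again without overlap. The mean of the gene's probe sets gave -1.42 and -1.68 for the SCNT differences without and with the inhibitor. At the 2-cell stage the gene was not called in SCNT embryos (0.23, SE 0.17). Cumulus cell markers had 11 of 17 above the overall median in SCNT 1-cell embryos and 9 of 17 in fertilized ones, with summed levels of 1376 to 1422 and 1226 to 1435, and sperm markers had 4 of 8 above it in fertilized ones. Of 10 oocyte markers 5 were lower and 0 higher in SCNT minus fertilized 1-cell embryos (median -0.32), as in parthenogenetic minus fertilized ones (median -0.44), and with α-amanitin 4 were lower and 1 higher in SCNT embryos (median -0.38). The part of carried-over cells and of oocyte RNA as a whole in the result was not tested.

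Few other members differed between SCNT and fertilized 1-cell embryos. In all 1 was higher and 2 lower, against 2.24% and 2.13% of all genes. Aurka was lower by 0.45 (11.23, 11.35 and 11.42 against 11.65, 11.86, 11.84 and 11.75), and Sgo1 was higher by 0.39 with overlapping arrays. Both calls were lost without single arrays. The count was 6 without fertilized 1-cell replicate 1, 1 without any of fertilized 1-cell replicates 2, 3 or 4 or SCNT 1-cell replicates 1 or 4, and 1 with median centring, which left 0 higher.

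Parthenogenetic 1-cell embryos differed from fertilized ones in 20 members, with 7 higher and 13 lower against 8.57% and 7.65% of all genes (10 and 9 with median centring). Kif2c was lower by 1.71 (7.73, 7.95, 7.89 and 7.81 against 9.15, 9.58, 9.64 and 9.85), or by 0.78 for the mean of its probe sets. Cenpc1 was lower by 1.52, Bub3 by 1.22 (0.15 for the mean of its probe sets), Cenpq by 1.21 and Ndc80 by 1.20 (SE 0.17). Ndc80 arrays read 7.16, 6.91, 7.04 and 7.07 against 8.59, 8.22, 8.21 and 7.95, with no overlap. Cenpi was higher by 1.43, Cenpa by 0.48 (SE 0.11) and Mad2l1 by 0.38 (SE 0.09). SCNT minus parthenogenetic 1-cell embryos gave 11 higher and 4 lower members, against 5.61% and 5.72% of all genes (7 and 6 with median centring). Kif2c (1.35, SE 0.19), Cenpc1 (1.22, SE 0.22) and Cenpq (0.95, SE 0.19) were higher in SCNT embryos. Bub1b was not called between these origins (0.23, SE 0.18, adjusted p = 0.522).

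In untreated 2-cell SCNT embryos the 4 spindle and 2 shugoshin members were lower than in fertilized ones. The 27 other spindle motors and microtubule proteins were split, with 7 higher and 9 lower. Of the 45 members 14 were lower and 2 higher, against 13.3% and 11.7% of all genes, with medians of -0.08 over the members and -0.04 over all genes. All 4 spindle genes and both shugoshins were lower, whereas 12 of the 15 centromere proteins were not called. Sgo2a, the main shugoshin of egg meiosis, read 5.07, 4.07, 5.74 and 4.71 in SCNT embryos and 7.27, 7.75, 7.46 and 7.81 in fertilized embryos. The groups were well apart (-2.68, SE 0.27, adjusted p = 2.83e-10), a 6.39-fold difference, although 3 of the 4 SCNT arrays lay under the overall median.

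Aurkc read 8.21, 8.12, 8.48 and 8.54 in SCNT against 9.69, 9.61, 9.57 and 9.76 in fertilized 2-cell embryos (-1.32, SE 0.09, adjusted p = 1.2e-14). Kif11 read 7.76, 7.80, 7.13 and 6.88 against 8.78, 8.62, 8.34 and 8.65 (-1.21, SE 0.18), or 2.31-fold. Both groups of arrays were apart for these genes. Other probe sets of Kif11 gave -1.48 and -0.06. Kif2c was lower by 0.73, Tpx2 by 0.60, Bub1 by 0.57 and Cenpk, an inner kinetochore protein, by 0.56. For Kif2c and Tpx2, further probe sets above the overall median included some with the opposite sign. Numa1 was lower by 0.52, a call lost without SCNT 2-cell replicate 2 or fertilized 2-cell replicate 2. Those of Zw10, Kntc1 and Sgo1 were also lost without single arrays.

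Higher in SCNT 2-cell embryos were Zwint and Cenpn. Zwint read 10.17, 10.07, 9.64 and 9.70 against 7.91, 7.72, 8.82 and 8.86 (1.57, SE 0.26), or 0.53 for the mean of its probe sets. The fertilized arrays of this gene fell into a lower and a higher pair, and all SCNT arrays lay above both. A further probe set of Zwint above the overall median had the opposite sign. Cenpn, which reads CENP-A nucleosomes, was higher by 0.45. Cenpt, Cenpl and Cenpa, which changed strongly between the stages, were not called between the origins, nor were Aurkb and Mad2l1. Cenpt differed by -0.04 (SE 0.24), Cenpl by -0.21 (SE 0.28), Cenpa by -0.19 (SE 0.11), Aurkb by 0.34 (SE 0.15) and Mad2l1 by 0.05 (SE 0.09). Values that miss the threshold do not show that the levels were equal.

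**Figure D5:**
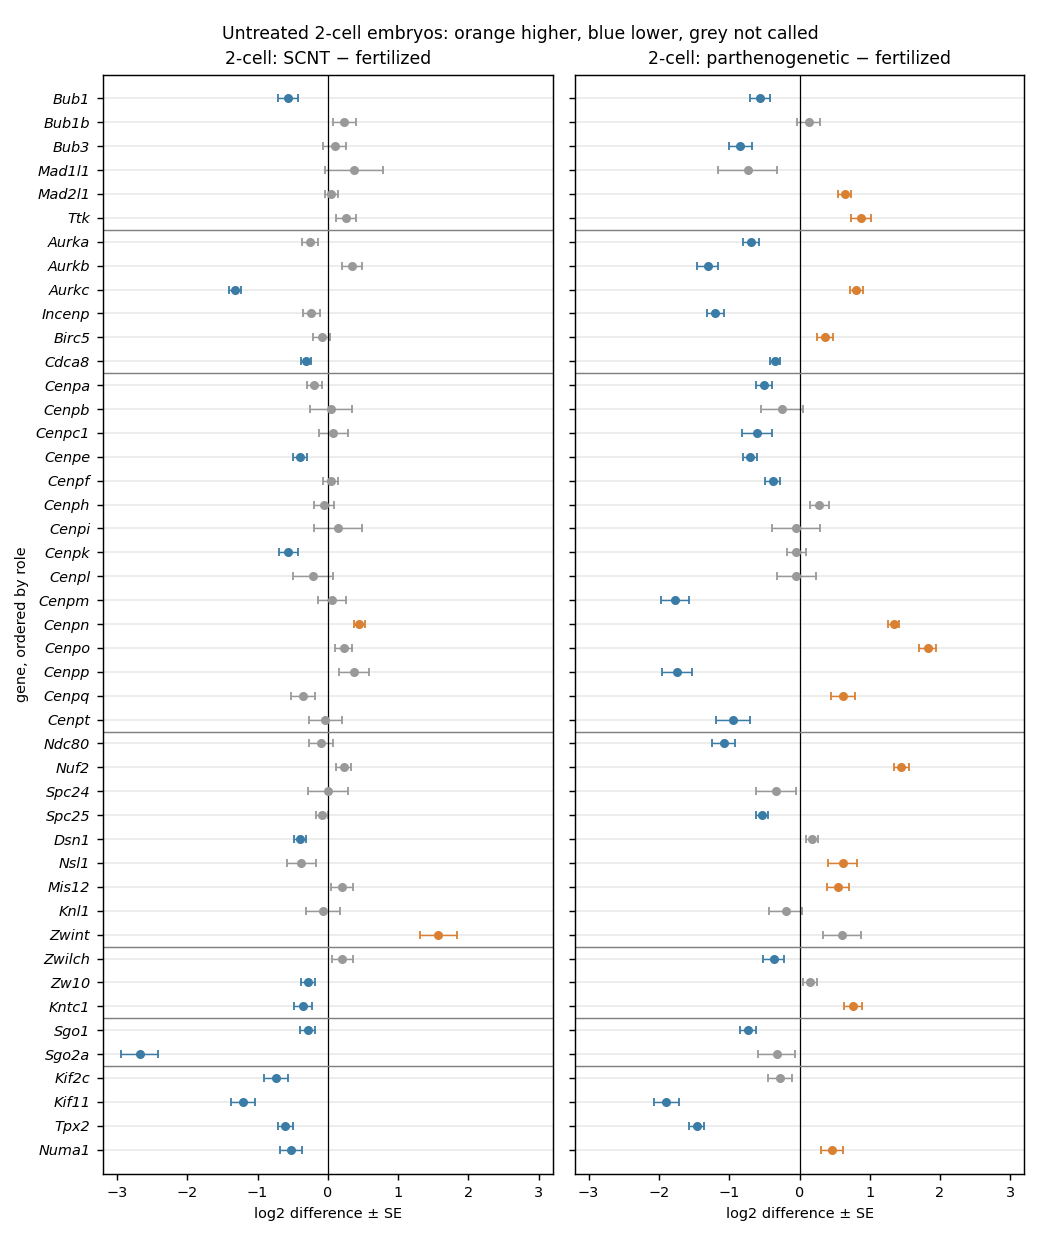
Log2 difference from fertilized embryos for each gene in untreated 2-cell embryos, SCNT on the left and parthenogenetic on the right, with SE bars. Orange points were called higher, blue points lower, and grey points were not called. Sgo2a has the lowest value on the left (-2.68) and Kif11 on the right (-1.89), and both panels share the fertilized arrays.

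Parthenogenetic 2-cell embryos differed from fertilized ones in 31 members, 12 higher and 19 lower, against 21.5% and 17.3% of all genes. Kif11 was lowest relative to fertilized embryos, at 6.74, 6.91, 6.66 and 6.51 (-1.89, SE 0.18), or 3.71-fold. Cenpm was lower by 1.77, Cenpp by 1.74, Tpx2 by 1.46, Aurkb by 1.30, Incenp by 1.20 and Ndc80 by 1.08. For the mean of their probe sets Tpx2 (-0.26, adjusted p = 0.0549) and Incenp (-0.27, adjusted p = 0.283) lost their calls. For Aurkb the arrays read 7.66, 8.17, 7.97 and 7.68 against 9.02, 9.35, 9.05 and 9.27 and did not overlap. Cenpo (1.83, or 0.65 for the mean of its probe sets), Nuf2 (1.45), Cenpn (1.34), Ttk (0.88), Aurkc (0.81) and Mad2l1 (0.64, SE 0.09) were higher. Cdca8, called lower, was higher by 0.039 with the values as deposited.

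Set directly against parthenogenetic 2-cell embryos, SCNT embryos had 19 members higher and 17 lower, against 20.3% and 24.7% of all genes. Cenpp (2.11), Cenpm (1.83) and Aurkb (1.65) were higher in SCNT embryos, and Sgo2a (-2.35), Aurkc (-2.13), Cenpo (-1.60, or -0.46 for the mean of its probe sets) and Nuf2 (-1.22, SE 0.11) were lower. Kif11 was higher by 0.69 (SE 0.18), with overlapping arrays.

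Under α-amanitin the origins can be compared on the remaining RNA. At the 1-cell stage 5 members were higher in SCNT than in fertilized embryos and 9 lower, against 8.1% and 9.15% of all genes (9 and 9 with the values as deposited, 3 and 14 with median centring). After Bub1b the largest were Mad1l1 (-1.26, SE 0.42), Cenpq (1.21), Ndc80 (-1.02) and Cenpc1 (-0.99). The call of Mad1l1 was lost without replicate 3 or 4 of the SCNT or replicate 2 or 3 of the fertilized embryos (adjusted p = 0.0596 to 0.0993). At the 2-cell stage 8 were higher and 21 lower, against 15.4% and 20.1% of all genes, and all 6 Aurora and passenger genes were lower. For the mean of their probe sets Aurka lost its call (-0.38, adjusted p = 0.223) and Incenp stood at -0.58. Cenpa was lower by 3.43 (1.38 for the mean of its probe sets) and Cdca8 by 2.39, and Spc24 stood at -2.71 (-1.95 with a constant at the 40th percentile). Mis12 was higher by 2.10 and Cenpq by 1.32.

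The 14 members lower in untreated SCNT 2-cell embryos can be followed in the arrays with α-amanitin, which the comparison does not share. There 9 were lower in SCNT embryos as well, Sgo2a by 2.10 and Kif11 by 2.07 among them. Cenpe, Cenpk, Dsn1 and Kntc1 were higher and Kif2c was not called. Of all genes lower in untreated SCNT embryos, 39.2% were lower with the inhibitor. Zwint and Cenpn, the higher members, were both lower with it.

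The 3 Aurora kinases had different courses over the 10 groups. Aurka ran from 11.78 ± 0.10 (SD, n = 4) in fertilized 1-cell embryos through 11.42 ± 0.08 at the 2-cell stage to 9.54 ± 0.09 there with α-amanitin, and was lowest, 8.21 ± 0.44, in SCNT 2-cell embryos with it. Aurkb was highest in the untreated 2-cell embryos of SCNT (9.52 ± 0.18) and fertilized (9.17 ± 0.16) origin, neighbours that were not called apart, and lowest in SCNT 2-cell embryos with α-amanitin (6.30 ± 0.19). Aurkc lay between 11.92 ± 0.05 and 12.32 ± 0.07 in the 1-cell groups. At the 2-cell stage its order from low to high was SCNT (8.34 ± 0.20), SCNT with α-amanitin (9.47 ± 0.08), fertilized (9.66 ± 0.09), parthenogenetic (10.47 ± 0.14) and fertilized with α-amanitin (11.25 ± 0.14). SCNT with α-amanitin and untreated fertilized embryos, neighbours in this order, were not tested against each other.

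Several genes have further probe sets that do not follow the one used. Counting those above the median of all genes, 17 of 25 had the sign of the called difference between the stages in fertilized embryos, 18 of 25 that of α-amanitin in fertilized and 20 of 27 that in SCNT 2-cell embryos. For SCNT minus fertilized 2-cell embryos it was 15 of 19. Bub1b has 3 probe sets. In 1-cell SCNT minus fertilized embryos another of them gave -1.98. The mean of all 3 was weaker, at -1.42, since the remaining probe set differed less than both. Further probe sets of Sgo1, Tpx2 and Bub3 disagreed in direction. A second probe set of Sgo1 fell by 2.12 between the stages in fertilized embryos, a Tpx2 probe set was higher by 1.61 with α-amanitin in fertilized 2-cell embryos, and a Bub3 probe set was higher there by 2.14. Directions of Sgo1, Tpx2 and Kif11 between the stages in fertilized embryos therefore hold for the probe set used and not for the gene's mean. The probe sets used for Aurkb, Incenp and Kif2c (suffix x), and for Bub1b, Bub3, Cdca8, Cenpo and Numa1 (suffix s), are marked as ones that may take signal from similar or several transcripts.

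Further genes of cell division were taken as lists from textbook function. Over all genes, 21.6% rose and 28.6% fell between the stages in fertilized embryos. With α-amanitin 32.2% were higher and 21.7% lower in fertilized 2-cell embryos, and 33.9% and 25% in SCNT ones. Relative to fertilized 2-cell embryos 11.7% were higher and 13.3% lower in SCNT embryos, and 21.5% and 17.3% in parthenogenetic ones. Whether the counts of the lists depart from these shares was not tested. Of 19 other kinetochore genes, 8 rose and 9 fell between the stages in fertilized embryos, led by Oip5, a loader of CENP-A (3.91), and Trip13, which takes checkpoint complexes apart (3.19). With α-amanitin in fertilized 2-cell embryos 10 of the 19 were lower and 7 higher, Oip5 by -4.58 and Trip13 by -4.14. In untreated SCNT 2-cell embryos 9 of the 19 were lower than in fertilized ones and 1 higher. Cenps (-1.53, adjusted p = 3.9e-11), Ska1 (-1.04) and Ska3 (-1.04), of which the SKA proteins follow microtubule ends, and Oip5 (-0.94) were the largest. Parthenogenetic 2-cell embryos had 9 of them higher and 5 lower.

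Of 20 genes of the anaphase-promoting complex and separase, the machinery that the checkpoint restrains, 6 rose and 9 fell between the stages in fertilized embryos. With α-amanitin at the 2-cell stage 7 were lower and 10 higher in fertilized embryos, among them the activator Cdc20 (-3.03), while 13 were lower and 4 higher in SCNT embryos. In SCNT minus fertilized 2-cell embryos 4 were higher and 2 lower, Cdc27 by -0.98. Among 17 mitotic cyclins and kinases 4 rose and 9 fell between the stages in fertilized embryos. Cdk1, the kinase that drives entry into mitosis, rose by 2.19 and was lower with α-amanitin by 4.66 in fertilized and 5.54 in SCNT 2-cell embryos.

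Among 21 cohesin and condensin genes, 9 rose and 9 fell between the stages in fertilized embryos, with Ncapd2, a condensin subunit, at 3.67. In SCNT minus fertilized 2-cell embryos 3 were higher and 5 lower, from Nipbl, the cohesin loader (1.41), to Smc1b, a meiotic cohesin (-1.45). Of 27 other spindle motors and microtubule proteins 10 rose and 12 fell between the stages in fertilized embryos, with Hmmr at 3.43. With α-amanitin 17 were lower and 5 higher in fertilized 2-cell embryos. In SCNT minus fertilized 2-cell embryos 7 were higher and 9 lower, and in parthenogenetic minus fertilized 2-cell embryos 4 were higher and 16 lower.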

How the data were processed

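Poly(A) RNA was extracted with PicoPure and biotin labelled with an Enzo kit, per the labels' protocols. The values deposited by the authors are linear probe set intensity, with 1 SCNT column empty. The software is not given in the sources used here, and the mean after trimming 2% at each end was 150.001 on all 39 arrays, so the authors scaled each array globally. The letter A before a replicate number was read as α-amanitin, which the labels spell out for 7 of 8 SCNT samples.

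After 64 control probe sets were set aside, values were taken as log2 of intensity plus 6.9 (the 20th percentile), quantile normalized and fitted as 10 group means with limma 3.58.1 in R 4.3.3 (29 residual degrees of freedom, empirical Bayes with trend, 2-sided). Benjamini-Hochberg adjustment ran over 18193 genes in each of 17 comparisons and 3 interactions. No low-value filter was used, and 3 members were matched through older symbols. The fit was tested on simulated data. Arrays are given for up to 8 called members per comparison with the largest non-overlapping differences, up to 3 not called and 11 set genes, and of other lists up to 4 called genes. The members and lists were chosen with earlier results of these data known. The number of arrays limits precision.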

Additional observations from a re-analysis of the deposited data

Results flagged for a closer look

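Among 405 sets of 4 arrays of 1 gene in 1 group, 22 had an array whose gap to the others exceeded the 95% limit of Dixon's test, and chance gives about 1 in 20. In 1 of them the group spanned at least 1 log2 unit, Cenpi on fertilized 1-cell replicate 4 (4.25, the next array at 5.93). Fertilized 1-cell replicate 1 was the far array for Cenpf (11.97), Cenph (8.33), Sgo1 (9.23) and Numa1 (9.32). With α-amanitin, fertilized 1-cell embryos had far arrays for Aurkb (7.65, replicate 1), Aurkc (11.98, replicate 2), Cenpo (11.39, replicate 2) and Kntc1 (9.45, replicate 4). Fertilized 2-cell embryos with it had them for Bub3 (9.78, replicate 3) and Aurkc (11.04, replicate 4), and SCNT 2-cell embryos with it for Cenpf (11.51, replicate 3). Untreated SCNT 2-cell embryos had them for Cenpc1 (8.92, replicate 4), Cenpe (10.42, replicate 1) and Zwilch (8.96, replicate 1). Parthenogenetic 1-cell embryos had them for Nsl1 (6.03, replicate 3) and Sgo2a (7.98, replicate 2), and parthenogenetic 2-cell embryos for Bub3 (10.26, replicate 2), Mad1l1 (4.82, replicate 4), Ttk (9.47, replicate 1), Aurkc (10.68, replicate 4) and Mis12 (9.31, replicate 2).

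A further set of genes had an interaction called in limma with a size of at least 1 log2 unit. Sizes are for the probe set used and need not hold for the gene. For the effect of α-amanitin, some further probe sets of Incenp and Numa1 above the overall median had the opposite sign. For the stage change in parthenogenetic minus fertilized embryos, some of Sgo1 and Tpx2 did. After averaging over probe sets, Sgo1 and Tpx2 changed by similar amounts between the stages in these 2 origins. For the effect of α-amanitin at the 2-cell stage, SCNT minus fertilized embryos, these were Zwint (-4.08), Cenpa (-3.24), Spc24 (-2.71), Cdca8 (-2.08), Ttk (-1.67), Bub3 (-1.63), Incenp (-1.58), Zwilch (-1.47), Aurka (-1.07), Numa1 (-1.07), Kntc1 (1.12), Cenpe (1.14), Ndc80 (1.19), Cenpq (1.67) and Mis12 (1.90). For the change between the stages, SCNT minus fertilized embryos, they were Sgo2a (-2.78), Aurkc (-1.08), Zwint (1.37) and Bub1b (2.32). For that change in parthenogenetic minus fertilized embryos they were Cenpp (-1.77), Tpx2 (-1.53), Cenpm (-1.51), Cenpi (-1.49), Sgo1 (-1.25), Kif11 (-1.13), Incenp (-1.05), Aurkc (1.21), Cenpn (1.31), Kif2c (1.43), Nuf2 (1.73), Cenpq (1.83), Cenpo (2.15) and Bub1b (2.45).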

How the results depend on the processing

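Of 469 called differences of members, 445 kept their direction and call with the values as deposited, 419 with median centring, 375 with each gene's probe sets averaged, 465 with a constant at the 40th and 468 with one at the 5th percentile, 465 with array weights, 453 without the trend, 452 with only the compared arrays, and 462 without both fertilized 1-cell replicate 1 and replicate 4 of SCNT 1-cell embryos with α-amanitin. A filter on low values left 466 to test, all kept. Leaving out 1 array at a time lost 164 of 4180 calls and reversed 0. Residuals with the same replicate number correlated at -0.115 to 0.101 over 171 pairs, so no pairing by number was seen. A batch shared in another way would not show in these correlations. A fit with the replicate block kept 466 of the 469 and lost 3, among them Sgo1 in SCNT minus fertilized 1-cell embryos (0.39).

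Counts of members called moved by over 1.5 times in 2 comparisons. For α-amanitin in fertilized 1-cell embryos (5) they were 9 as deposited, 15 with median centring, 9 with array weights, 8 without the 2 arrays, 3 with only the compared arrays, and 2 to 8 leaving out 1 array. For SCNT minus fertilized 1-cell embryos (3) they were 1 with median centring, 1 without the trend, 6 without the 2 arrays, and 1 to 6 leaving out 1 array. For these the cause was not tested.

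Directions turned as follows, with causes not tested, among called differences and some that were not called. Those not called were Birc5, Cenpn, Bub1, Spc25 with α-amanitin, Cenpf, Cenpa in SCNT minus fertilized 1-cell embryos, Cdca8 in SCNT minus parthenogenetic embryos, Nsl1 between the stages in fertilized embryos, Tpx2 and Incenp between them in SCNT embryos, and Cenpk in fertilized embryos with α-amanitin. With the values as deposited those that turned were Cdca8 between the stages in fertilized embryos (-0.10), with α-amanitin in fertilized 2-cell embryos (0.20), in parthenogenetic minus fertilized (0.039) and SCNT minus parthenogenetic 2-cell embryos (-0.36) and in the parthenogenetic interaction (0.16). Birc5 with α-amanitin in SCNT 2-cell embryos (0.33) and Cenpn in SCNT minus fertilized 1-cell embryos with α-amanitin (0.30) turned too. With median centring they were Cdca8 between the stages in fertilized embryos (-0.24), with α-amanitin in fertilized 2-cell embryos (0.20) and in SCNT minus parthenogenetic 2-cell embryos (-0.38), Tpx2 between the stages in SCNT embryos (-0.39), Spc25 (-0.0014) and Sgo1 (-0.26) in parthenogenetic embryos, and Bub1 (-0.49) and Cenpk (-0.47) in fertilized embryos with α-amanitin.

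With probe sets averaged per gene, between the stages, in fertilized embryos they were Nsl1 (0.99), Sgo1 (-0.28), Kif11 (0.017) and Tpx2 (-0.19), in SCNT embryos Nsl1 (0.85), Sgo1 (-0.95), Tpx2 (-0.74) and Incenp (0.48), in parthenogenetic embryos Sgo1 (-0.29), Incenp (0.16) and Cenpk (0.020), in fertilized embryos with α-amanitin Tpx2 (0.063), Spc25 (0.34) and Zw10 (0.14), and in SCNT embryos with it Cenpf (0.34). For α-amanitin at the 2-cell stage they were Nsl1 (-0.92) and Sgo1 (0.72) in fertilized and Nsl1 (-0.72) and Sgo1 (0.50) in SCNT embryos. At the 1-cell stage they were Cenpa in SCNT minus fertilized embryos without (0.68) and with α-amanitin (0.15), Zw10 in parthenogenetic minus fertilized (0.061) and in SCNT minus parthenogenetic embryos (-0.11), and Incenp in the latter (-0.11). In parthenogenetic minus fertilized 2-cell embryos they were Nsl1 (-0.19), Sgo1 (0.44), Cenpa (0.26) and Bub3 (0.066), and in SCNT minus parthenogenetic 2-cell embryos Nsl1 (0.093), Sgo1 (-0.93), Tpx2 (-0.24), Cenpa (-0.31), Bub3 (-0.13), Cdca8 (-0.33) and Zwint (-0.0042). The interaction of stage and SCNT turned for Incenp (0.020).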
